A study of Mus musculus with 2 samples.

Results

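The collagen genes outside the cartilage genes *Col2a1*, *Col9a1* and *Col11a1* were read in mouse embryonic fibroblasts (MEFs) with and without BCL11B, a zinc finger transcription factor. Every probe set that the platform annotation pairs with exactly 1 gene named Col, a number, a and a number was taken, which gave 39 genes on 77 probe sets of 18193 genes on 34945 probe sets. The rule leaves out 3 genes of hyaline cartilage, but *Col9a2*, *Col9a3*, *Col10a1* and *Col11a2*, which cartilage also uses, stayed in. The samples were primary MEFs of C57BL/6 embryos at embryonic day 12.5, either wild type (*BCL11B*+/+) or *BCL11B*-/-, with 1 array for each genotype. At passage 2 the cells of both genotypes were kept for 12 h in DMEM with 10% FBS and a mixture that starts adipocyte differentiation. Added were pioglitazone (10 μM), insulin (10 μg/ml), the glucocorticoid DEX (1 μM) and the phosphodiesterase inhibitor MIX (0.5 mM). The paper's methods also list ascorbic acid in this differentiation medium. The labels name no Cre or promoter for the deletion. The number of cultures and the number and sex of the embryos behind each array are not given in the sources used here. Values are expression on the log2 scale after the robust multi-array average (RMA), and a difference is always *BCL11B*-/- minus *BCL11B*+/+.

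Collagens are proteins of 3 chains wound into a triple helix. Fibrillar collagens form the banded fibrils of connective tissue, network collagens form basement membranes and hexagonal lattices, and FACIT collagens (fibril-associated, with interrupted helices) sit on the surface of fibrils. Type VI builds beaded filaments, and transmembrane collagens stay anchored in the cell surface. In fat tissue, preadipocytes begin in a matrix rich in fibrils and later surround each adipocyte with a basement membrane.

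The largest differences among the collagen genes were a higher level of *Col8a1*, a network collagen of vessel walls and Descemet's membrane, and a lower level of *Col14a1*, a FACIT collagen of skin and tendon. *Col8a1* read 9.53 in *BCL11B*+/+ and 10.55 in *BCL11B*-/- MEFs, a difference of 1.03, or 2.04-fold higher. *Col14a1* read 9.53 in *BCL11B*+/+ and 8.66 in *BCL11B*-/- MEFs, a difference of −0.87, or 1.83-fold lower. On the brightest probe set of each gene, the measured chains of types I, III, IV, V, VI and XII differed by 1.26-fold or less. With 1 array per genotype there is no replicate error, so no p-value is given and a size of 1.5-fold serves as the rule. Where a gene has several probe sets with a mean of at least 5, the spread of their differences serves as a technical yardstick. Its pooled SD was 0.145 over 5543 genes and 0.135 over 16 collagen genes, and it holds no variation between cultures.

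Of the 39 genes, 28 had a mean over both arrays of at least 5 log2 units and 11 did not. Among the 28, 1 was higher in *BCL11B*-/- MEFs by at least 1.5-fold, beside 1.61% of the 12331 genes measured this way. Likewise 1 was at least 1.5-fold lower, beside 1.75% of all genes. The 2 genes are 7.14% of the 28, beside 3.36% of all genes in either direction. At 1.2-fold, 3 were higher (*Col8a1*, *Col8a2* and *Col18a1*), beside 8.82% of all genes. At the same limit 4 were lower (*Col14a1*, *Col27a1*, *Col6a2* and *Col4a4*), beside 7.8%, and both directions together stood beside 16.6%. At 2-fold *Col8a1* was the 1 gene higher, beside 0.349%, and 0 were lower, beside 0.503%, with 0.852% of all genes in either direction. The 28 differences had a median of −0.096, with quartiles of −0.22 and 0.094, and 17 lay below 0. All 12331 genes had a median of 0 with quartiles of −0.11 and 0.11, and 48.5% lay below 0.

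**Figure D1:**
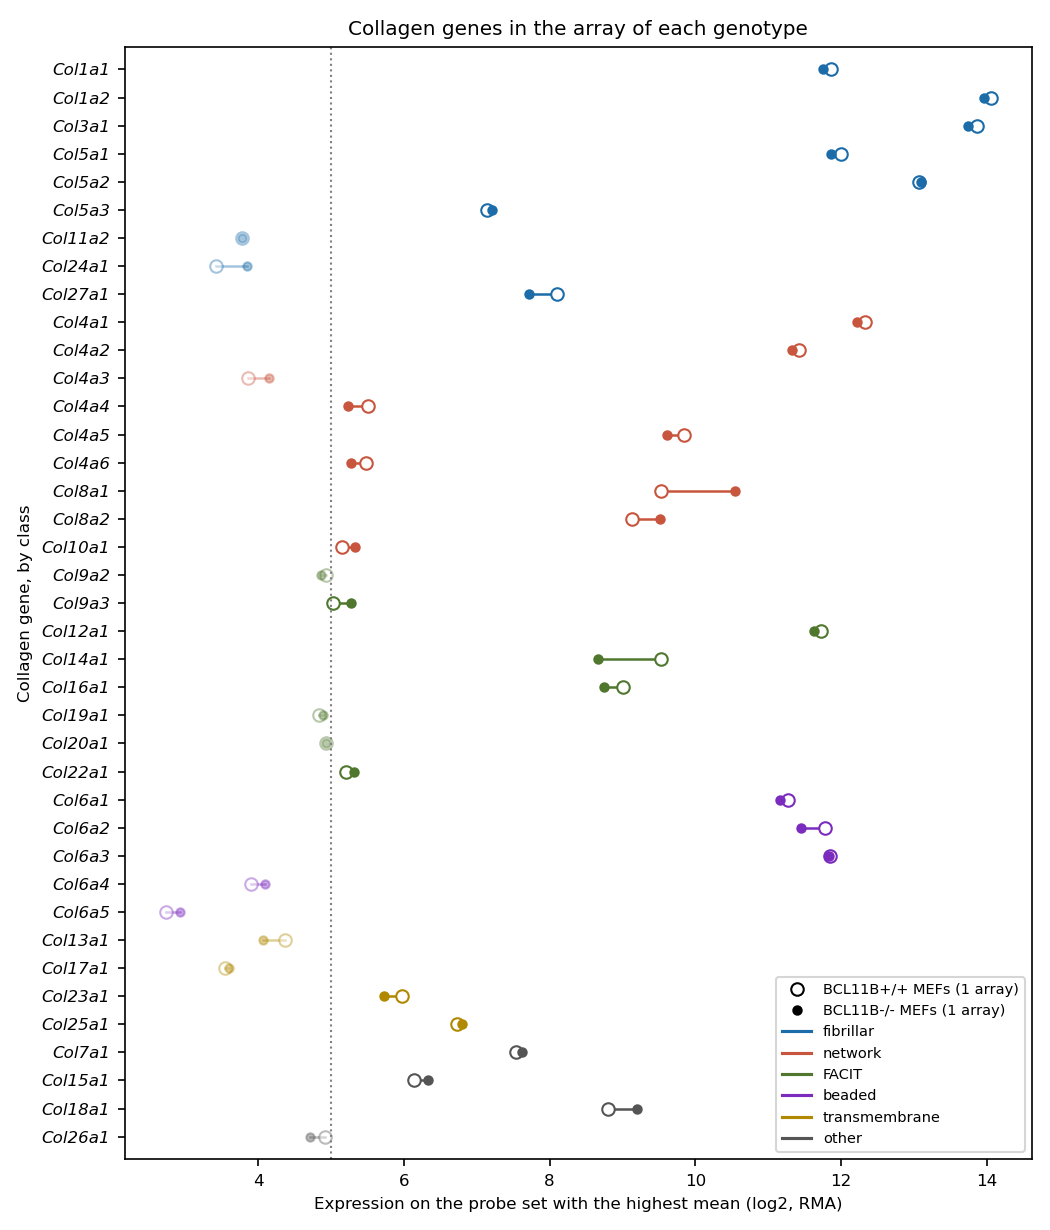
Expression (horizontal axis, log2 after RMA) of the 39 collagen genes (vertical axis, coloured by class) read from each gene's brightest probe set. Open circles are the *BCL11B*+/+ array and filled circles the *BCL11B*-/- array, without error bars because each genotype has 1 array. Genes left of the dotted line at 5 log2 units are faded, and the widest gaps among the others belong to *Col8a1* (9.53 and 10.55) and *Col14a1* (9.53 and 8.66).

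Before the collagen genes are taken one by one, the identity of the samples was read from other genes. *Bcl11b* read 8.77 in *BCL11B*+/+ and 7.40 in *BCL11B*-/- MEFs, and its 4 probe sets differed by −1.57 to −1.18. The deleted exons are not named in the sources used here, so a probe set outside the deletion would not check the label. *Xist*, which marks cells with an inactive X chromosome, read 10.80 in *BCL11B*+/+ and 4.80 in *BCL11B*-/- MEFs. With 1 array per genotype, a difference in sex or between embryos cannot be told apart from the genotype in any value given here. The fibroblast genes *Pdgfra*, *Vim* and *Prrx1* read 11.57 or more in both arrays, while *Thy1*, a surface protein of fibroblasts, differed by −0.65. Genes listed as markers of other cells moved as well. Of 12 macrophage genes 11 were measured, 10 of them at least 1.5-fold lower, beside 1.75% of all genes, and none higher. Their summed linear signal went from 4487 in *BCL11B*+/+ to 2470 in *BCL11B*-/- MEFs. Smooth muscle markers went the other way, with 5 of 9 genes at least 1.5-fold higher, beside 1.61% of all genes, and 0 lower. The 5 were *Acta2*, *Tagln*, *Cnn1*, *Lmod1* and *Myl9*, and the summed signals of the 9 were 6345 and 10136. *Myh11* read 5.28 and 5.42, close to 5, and *Des* read 6.97 in both arrays. Whether the cultures held smooth muscle cells was not tested. Of 8 endothelial genes 3 were measured (*Kdr*, *Esam* and *Cldn5*, between 0.15 and 0.39), while *Pecam1* and *Cdh5* were among the 5 with a mean under 5. Of 6 skeletal muscle genes 2 were measured (*Acta1* with 0.37 and *Ckm* with 0.0092), and *Myod1* was among the 4 with a mean under 5. In a whole culture, fewer cells of a type and less RNA per cell cannot be told apart.

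The network class held the collagen gene with the largest difference. *Col8a1* has 3 probe sets. They read 9.53, 8.64 and 5.33 in *BCL11B*+/+ MEFs and 10.55, 9.60 and 5.95 in *BCL11B*-/- MEFs. The differences of 1.03, 0.96 and 0.62 were each past 1.5-fold, and their mean was 0.87. Among 12331 genes *Col8a1* ranked 40th from the highest by difference, and by the weighted average difference, which favours abundant transcripts and was taken from the probe set where it was widest, it ranked 4th of 18193. *Col8a2*, which encodes the other chain of type VIII collagen, read 9.13 and 9.51, a difference of 0.39 or 1.31-fold higher. Both type VIII chains were thus higher in *BCL11B*-/- MEFs, *Col8a1* by 0.64 log2 units more than *Col8a2*. The yardstick of 0.145 is the spread within 1 gene and does not measure a gap between 2 genes. *Col10a1*, the collagen of hypertrophic cartilage, read 5.15 and 5.33, close to the level of 5 used as a floor.

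The starts of the type VIII genes are shown because both genes lay higher in *BCL11B*-/- MEFs. The letters are the 250 bases before the annotated start, taken from RefSeq on GRCm38.p6 and written 5′ to 3′ on the gene's strand. Capitals mark matches to the GC box, GGGCGG, on either strand. The first lies at chr16:57754738-57754987 on the minus strand and the second at chr4:126286544-126286793 on the plus strand.
Col8a1: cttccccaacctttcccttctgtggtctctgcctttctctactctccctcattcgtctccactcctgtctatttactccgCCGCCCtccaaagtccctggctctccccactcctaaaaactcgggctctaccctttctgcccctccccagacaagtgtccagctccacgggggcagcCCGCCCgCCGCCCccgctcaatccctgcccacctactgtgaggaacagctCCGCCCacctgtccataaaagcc
Col8a2: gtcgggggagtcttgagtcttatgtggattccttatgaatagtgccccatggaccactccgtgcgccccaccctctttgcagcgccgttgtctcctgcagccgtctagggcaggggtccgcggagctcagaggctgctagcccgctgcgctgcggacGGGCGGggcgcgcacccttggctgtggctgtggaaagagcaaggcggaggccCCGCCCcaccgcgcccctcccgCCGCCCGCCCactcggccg
Each window holds 4 GC boxes, with overlapping matches in *Col8a2* counted separately. At least 4 were found in 2 of 33 windows of the collagen genes, these 2, or 6.06%. The share was 4.09% of 32851 windows of the same length over all genes. The limit of 4 equals the count in these 2 windows, so the shares cannot mark a trait of the type VIII genes. The other motifs searched were the TATA box (TATAAA), the CCAAT box (CCAAT), the TEAD motif (GGAATG), the TCF/LEF motif (CTTTGAT), the C/EBP motif (TTGCNNAA) and the AP-1 motif (TGANTCA), and neither window holds any of these letters. Windows were found for 31 of the 39 genes, 2 of which have 2 windows. A GC box was in 20 of the 33 windows, or 60.6%, beside 32.7% of all windows, and the median GC content was 59.2% beside 52.4%. CCAAT was in 33.3% of the collagen windows and in 33.8% of all windows, and TCF/LEF in 3.03% and 3.21%. A match describes the letters and is not a binding site.

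**Figure D2:**
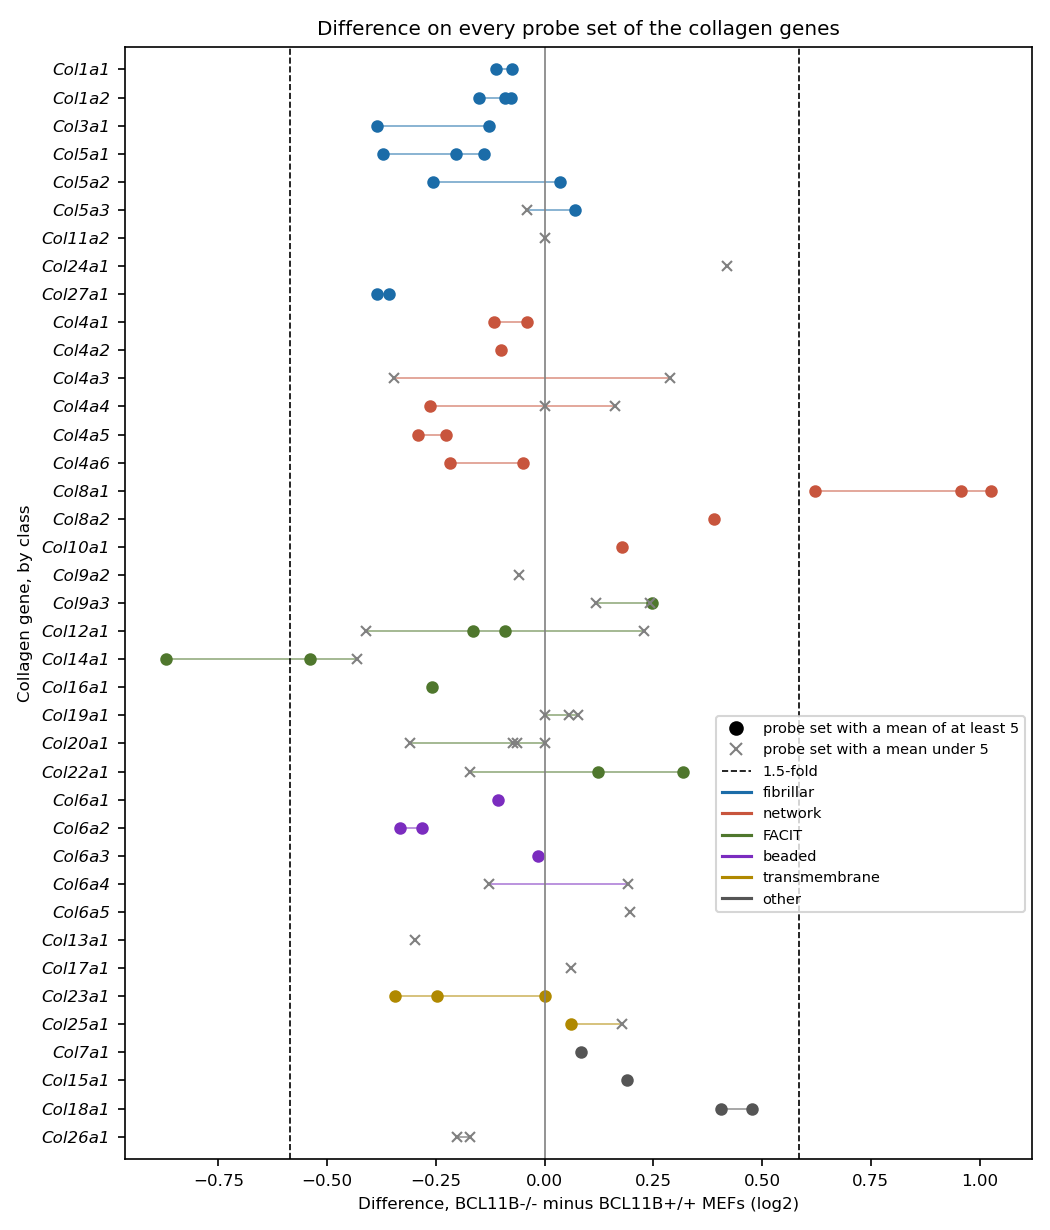
Difference between *BCL11B*-/- and *BCL11B*+/+ MEFs (horizontal axis, log2) on each of the 77 probe sets of the 39 collagen genes (vertical axis, coloured by class), with filled points for probe sets with a mean of at least 5 and grey crosses for dimmer ones. All 3 points of *Col8a1* lie right of the dashed line of 1.5-fold, and 1 of 3 points of *Col14a1* lies left of the other line.

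Type IV collagen, the sheet-forming collagen of basement membranes, was slightly lower on each of its measured genes. *Col4a1* read 12.33 and 12.22, and *Col4a2* read 11.43 and 11.33. These chains combine in the most common type IV trimer, and their differences of −0.12 and −0.10 were within the yardstick. *Col4a5* read 9.84 and 9.61, and *Col4a6* read 5.48 and 5.27. The genes lie near each other on the X chromosome, and differed by −0.23 and −0.22. *Xist* differed strongly between the arrays, as given above, while 397 X-linked genes had a median of 0.031 with 42.3% below 0. The part of the X chromosome in the values of *Col4a5* and *Col4a6* was not tested. *Col4a4*, a chain of the kidney glomerulus, read 5.50 and 5.24, but its dimmer probe sets differed by 0 and 0.16. *Col4a3* lay under 5. The 5 measured type IV genes had a median of −0.22, and all 5 lay below 0, beside 48.5% of all genes. None was past 1.5-fold, beside 3.36% of all genes in either direction.

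Partners of type IV in the basement membrane followed a list of 12 genes, of which 11 were measured. None was past 1.5-fold, beside 3.36% of all genes in either direction, and the median was −0.038. The laminin genes *Lama2*, *Lamc1* and *Lamb1* were the lowest, with −0.46, −0.35 and −0.32. *Lamb2* and the perlecan gene *Hspg2* were the highest, with 0.14 and 0.059 on their brightest probe sets. The other probe set of *Hspg2* differed by 0.40, so the order of these genes depends on the probe set.

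Fibrillar collagens, which make up the bulk of the fibrils of dermis and tendon, differed little. *Col1a1* read 11.86 in *BCL11B*+/+ and 11.75 in *BCL11B*-/- MEFs. *Col1a2*, the other chain of type I, read 14.06 and 13.97. Their differences of −0.11 and −0.092 were within 0.020 of each other, so the chains of type I differed by nearly the same amount. *Col3a1*, a fibrillar collagen of skin and vessels, read 13.87 and 13.74, with a difference of −0.13. Its second probe set, at 11.64 and 11.26, differed by −0.38. *Col5a1*, a chain of type V collagen, which starts fibrils, differed by −0.14 on its brightest probe set and by −0.37 and −0.20 on the others. *Col5a2* read 13.07 and 13.11 on its brightest probe set, a difference of 0.035, and −0.26 on the other. For *Col5a2* the sign therefore depends on the probe set. *Col5a3*, the third type V chain, read 7.14 and 7.21.

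*Col27a1*, a fibrillar collagen also found in cartilage, had the largest difference of its class. It read 8.10 and 7.72 on 1 probe set and differed by −0.38 there and by −0.36 on the other. *Col11a2* and *Col24a1*, the remaining fibrillar genes, had means under 5. The 7 measured fibrillar genes had a median of −0.11, with 5 below 0, beside 48.5% of all genes. None was past 1.5-fold, beside 3.36% of all genes in either direction, a share near 0 for so few genes.

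**Figure D3:**
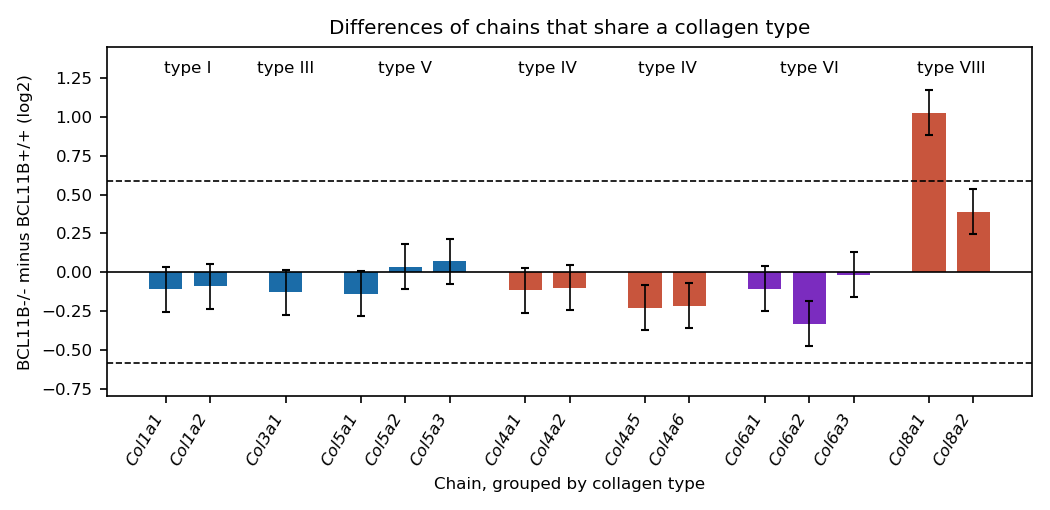
Difference between *BCL11B*-/- and *BCL11B*+/+ MEFs (vertical axis, log2, from the probe set with the highest mean) for chains of 6 collagen types (horizontal axis), with bars coloured blue for fibrillar, red for network and purple for beaded collagens. Error bars are the pooled SD between probe sets of 1 gene, 0.145, which is technical and not between cultures, and dashed lines mark 1.5-fold. The bars of type I are nearly equal, while *Col8a1* at 1.03 stands above *Col8a2* at 0.39.

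Among FACIT collagens *Col14a1* stood lowest. Its 3 probe sets read 9.53, 7.50 and 4.86 in *BCL11B*+/+ MEFs and 8.66, 6.96 and 4.43 in *BCL11B*-/- MEFs. The differences of −0.87, −0.54 and −0.43 all lay below 0, and their mean of −0.61 was still past 1.5-fold. Without the brightest probe set, whose name carries an _a suffix for several transcripts of 1 gene, the gene fell short of 1.5-fold with −0.54. *Col14a1* ranked 88th from the lowest of 12331 genes by difference and 56th from the lowest of 18193 by weighted average difference. *Col12a1*, the FACIT collagen closest to type XIV, read 11.72 and 11.63, a difference of −0.090. The pair of related FACIT genes thus differed by unequal amounts. *Col16a1*, found near fibrils and microfibrils, read 9.00 and 8.74, a difference of −0.26. *Col22a1*, a collagen of tissue junctions, read 5.20 and 5.32, and *Col9a3* read 5.02 and 5.27. *Col9a2*, *Col19a1* and *Col20a1* had means under 5.

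Of the 5 genes of beaded filaments, 3 were measured, and all 3 were below 0, beside 48.5% of all genes. None was past 1.5-fold, beside 3.36% of all genes in either direction. *Col6a1* read 11.27 and 11.16, a difference of −0.11. *Col6a2* read 11.78 and 11.45, a difference of −0.33, and −0.28 on its second probe set. *Col6a3* read 11.86 and 11.84, a difference of −0.016. The 3 chains form 1 monomer, and the difference of *Col6a2* lay 0.32 log2 units below that of *Col6a3*. The yardstick is the spread within 1 gene and does not measure such a gap. *Col6a4* and *Col6a5* lay under 5. On chromosome 10 *Col6a1* and *Col6a2* have 2 genes between them in the annotation of GRCm38.p6.

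Transmembrane collagens were dim. *Col25a1*, known from neurons and muscle, read 6.73 and 6.79, and *Col23a1* read 5.97 and 5.72. *Col23a1* differed by 0 to −0.34 over its 3 probe sets. *Col13a1*, a collagen of cell junctions, and *Col17a1*, the hemidesmosome collagen of epidermis, had means under 5.

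Of the genes outside these 5 classes, *Col18a1* differed most. It encodes a basement membrane proteoglycan whose end piece is endostatin, and read 8.80 in *BCL11B*+/+ and 9.20 in *BCL11B*-/- MEFs. Its 2 probe sets differed by 0.41 and 0.48, or 1.33- and 1.39-fold. *Col15a1*, the related multiplexin gene, read 6.14 and 6.33, a difference of 0.19. *Col7a1*, the anchoring fibril collagen, read 7.53 and 7.62. *Col26a1* lay under 5. The 3 measured genes were all above 0, with a median of 0.19, while 48.5% of all genes lay below 0.

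The 11 genes under 5 log2 units were *Col4a3*, *Col6a4*, *Col6a5*, *Col9a2*, *Col11a2*, *Col13a1*, *Col17a1*, *Col19a1*, *Col20a1*, *Col24a1* and *Col26a1*. The widest differences among them were 0.42 for *Col24a1* and −0.30 for *Col13a1*. *Col11a2* and *Col20a1* read the same in both arrays, as did 5 of the 77 collagen probe sets and 2971 of 45101 on the arrays. No comparison is drawn from these genes.

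Of the 28 genes, each on its brightest probe set, 14 differed by less than the yardstick of 0.145, as did 62.0% of all genes. The 11 genes with a mean of at least 11, a limit chosen after the values were seen, lay between −0.33 and 0.035. None was past 1.5-fold, beside 2.8% of the 572 genes as bright. Of the 11, 10 were below 0 with a median of −0.11, beside 49.7% of those 572 genes, whose median was 0.00066. Their summed linear signal went from 69449 in *BCL11B*+/+ to 64949 in *BCL11B*-/- MEFs, or 0.935 of it. The genes below 0 were *Col1a1*, *Col1a2*, *Col3a1*, *Col4a1*, *Col4a2*, *Col5a1*, *Col6a1*, *Col6a2*, *Col6a3* and *Col12a1*, and *Col5a2* was above 0. Of these 11 differences on the brightest probe sets, 10 were smaller than the yardstick of 0.145, *Col6a2* being the exception. The count depends on the probe set. The next brightest probe sets of *Col3a1*, *Col5a1*, *Col5a2*, *Col12a1* and *Col1a2* differed by −0.38, −0.37, −0.26, −0.16 and −0.15, beyond the yardstick. Those of *Col1a1* and *Col4a1* differed by −0.076 and −0.041, within it. Of 20 genes with several probe sets and a mean of at least 5, 14 had each probe set on the same side of 0 and 6 did not.

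**Figure D4:**
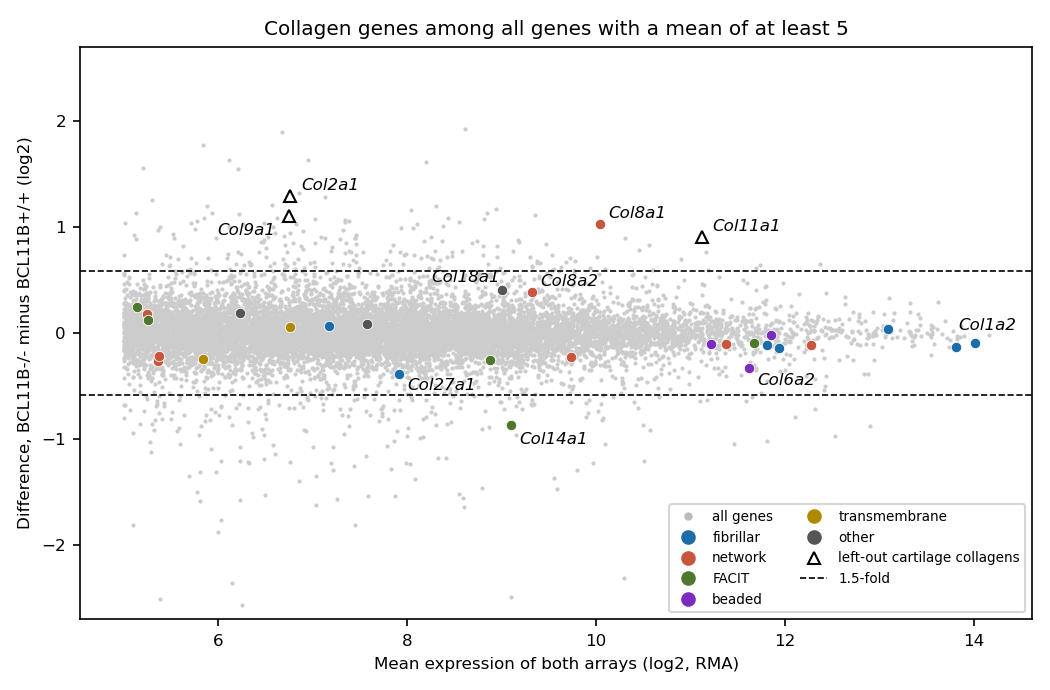
Difference between *BCL11B*-/- and *BCL11B*+/+ MEFs (vertical axis, log2) against mean expression of both arrays (horizontal axis, log2 after RMA) for 12331 genes (grey), the 28 measured collagen genes (coloured by class) and the left-out cartilage collagens (open triangles). Each gene is read on its brightest probe set, and *Col8a1* at 1.03 and *Col14a1* at −0.87 lie outside the dashed lines of 1.5-fold. The coloured points to the right of 11 log2 units lie between −0.33 and 0.035, while the triangle of *Col11a1* there lies at 0.90. Of the grey genes, 1 lies beyond the vertical axis.

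On their brightest probe sets the 3 cartilage collagens outside the family as defined here were higher by more than *Col8a2* and *Col18a1*. *Col2a1* read 6.12 and 7.41, *Col9a1* read 6.19 and 7.30, and *Col11a1* read 10.67 and 11.57. Their differences were 1.29, 1.11 and 0.90. The second probe set of *Col9a1* differed by 0.42, short of 1.5-fold, and that of *Col11a1* by 0.70. Of their partner chains, *Col9a3* differed by 0.25 at a mean close to the floor, and *Col9a2* and *Col11a2* lay under 5 and give no comparison. *Col5a2*, which can replace *Col11a2* in fibrils of mixed type, differed by 0.035. Of 10 chondrocyte genes that are not collagens 6 were measured. At least 1.5-fold higher were 3 (*Comp*, *Hapln1* and *Sox9*), beside 1.61% of all genes, and none was that much lower. The others were *Acan* with 0.45, *Snorc* with 0.078 and *Matn4* with −0.20. The summed signal of the 6 went from 434 in *BCL11B*+/+ to 745 in *BCL11B*-/- MEFs. *Matn1*, *Matn3*, *Chad* and *Cnmd*, which mark cartilage, lay under 5. Most measured chondrocyte and smooth muscle markers were higher in the same array as *Col8a1*, and the macrophage markers were lower in the same array as *Col14a1*. With 2 arrays, each gene that differs shares its direction with either *Col8a1* or *Col14a1*, so a shared direction shows no link. The part of other cell types in these values was not tested.

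Collagen chains need enzymes and chaperones before they leave the cell. None of the genes in the next 4 lists was past 1.5-fold, beside 3.36% of all genes in either direction. In lists this short, a count of 0 lies near that share. Of 19 genes for hydroxylation and folding 17 were measured, with a median of 0.049. *Plod2*, the lysyl hydroxylase of telopeptides, was highest, at 10.21 and 10.54 with a difference of 0.32, followed by *Plod3* with 0.27. *P3h1* and *Colgalt1*, a prolyl hydroxylase and a galactosyltransferase, were lowest, both with −0.16. *Serpinh1*, the collagen chaperone HSP47, read 12.33 and 12.26. Of 8 genes for procollagen secretion 7 were measured. The lowest were the coat protein genes *Sar1b* with −0.053 and *Sec23a* with −0.020, and the highest were *Sec24d* with 0.11 and *Creb3l1*, a transcription factor for collagen secretion, with 0.27. Of 8 genes that remove propeptides 5 were measured. The proteinase gene *Bmp1* differed by −0.040 and its enhancer gene *Pcolce2* by 0, while *Pcolce* and the proteinase gene *Adamts3* both differed by 0.16. Of 10 collagen receptors and uptake genes 8 were measured. The integrin genes *Itga1* and *Itga10* were highest with 0.36 and 0.27, and the integrin gene *Itga2* was lowest with −0.20. *Ddr1*, a collagen-binding kinase, differed by −0.18 on its brightest probe set and by −0.39 to 0.0078 over its 8 probe sets. *Ddr2*, the related kinase, differed by −0.13 on 1 probe set and by 0.14 on the other.

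Among crosslinking genes 1 of 5 was past 1.5-fold, beside 3.36% of all genes. *Loxl3*, a lysyl oxidase, read 7.71 in *BCL11B*+/+ and 8.91 in *BCL11B*-/- MEFs, 2.30-fold higher, on its only probe set. *Lox*, the founding member, read 13.22 and 13.42, a difference of 0.20. *Loxl1*, *Loxl4* and *Tgm2* lay between 0.12 and 0.26 on their brightest probe sets, and the probe sets of *Tgm2* lay on both sides of 0. None of the 5 was below 0 on its brightest probe set, beside 48.5% of all genes.

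Proteins that sit on fibrils and shape them included more genes past 1.5-fold. Of 14 measured genes 2 were at least 1.5-fold higher, 4 were lower and 8 were neither. That is 42.9% past the size rule, beside 3.36% of all genes in either direction, 1.61% higher and 1.75% lower. Earlier results on several of them were known when the list was written, so the share depends on that choice and cannot mark a trait of fibril partners. *Dpt*, which speeds fibril formation, read 11.45 and 9.14, a difference of −2.32. *Lum* and *Dcn*, small proteoglycans that bind fibrils, differed by −1.21 and −0.88, and *Tnxb* by −0.76. *Comp* and *Abi3bp* were higher with 1.63 and 1.13. *Fmod*, *Bgn*, *Postn*, *Tnc*, *Sparc*, *Thbs2*, *Aebp1* and *Fn1* lay between −0.21 and 0.23 on their brightest probe sets. For *Tnc* the sign depends on the probe set, with −0.099 on the brightest and 0.58 on the other. The FACIT gene *Col14a1*, whose protein binds decorin, differed in the same direction as *Dcn*. Of the 14 fibril partners, 8 lay below 0 and 6 above 0, and with 2 arrays a shared direction shows no link. *Col1a1* and *Col1a2*, on whose fibrils decorin and type XIV collagen sit, differed by −0.11 and −0.092.

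**Figure D5:**
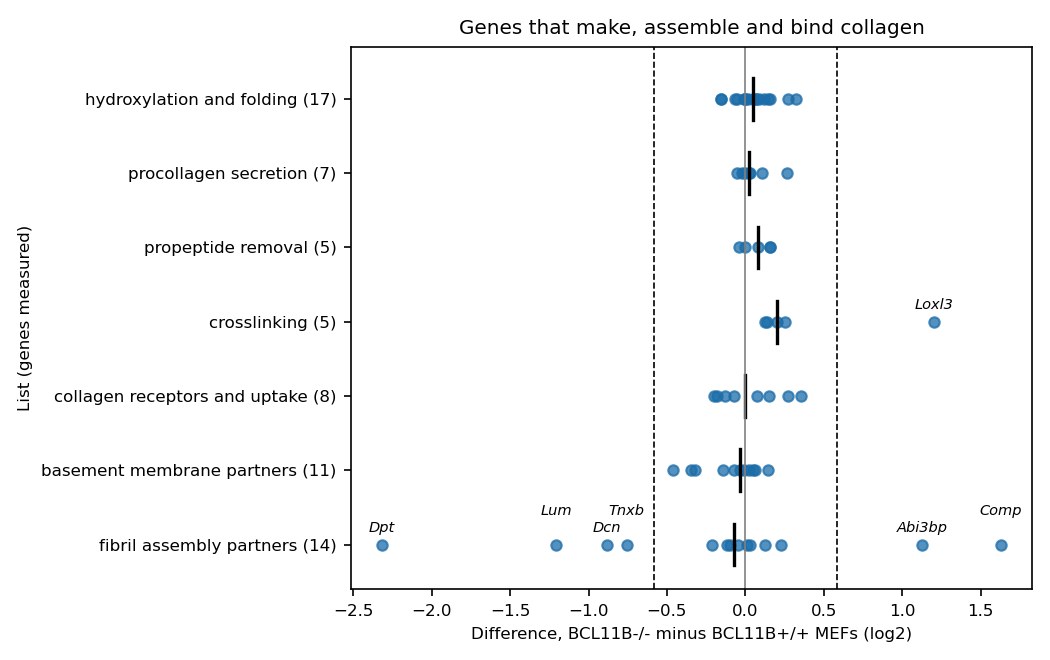
Difference between *BCL11B*-/- and *BCL11B*+/+ MEFs (horizontal axis, log2) for genes that make, assemble and bind collagen, sorted into 7 lists along the vertical axis, each with the count of its measured genes. The plot has points for genes, black bars for list medians and dashed lines at 1.5-fold. Genes past the lines are named: *Loxl3* among crosslinking genes, and *Dpt*, *Lum*, *Dcn*, *Tnxb*, *Abi3bp* and *Comp* among fibril partners.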

How the data were processed

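RNA of each genotype was hybridized by the authors to 1 Affymetrix Mouse Genome array, and the scans were reduced with RMA in R 3.0.3 per the labels and methods. The deposited values are log2 expression, normalized between the arrays and summarized per probe set, which would hide a change of total mRNA. The number of arrays limits the precision, and array medians were 5.28 and 5.28.

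The platform annotation names 1 gene for 34958 of 45101 probe sets, several for 932 and none for 9211. Controls were left out. All 39 collagen genes matched RefSeq (GRCm38.p6) by Entrez identifier. Each gene is represented by its brightest probe set, and a gene whose mean was below 5 entered no count. Collagen genes with a mean of at least 5 are named, and of the lists on making, assembling and binding collagen the genes past 1.5-fold with up to 2 highest and 2 lowest. Further genes of these lists and the markers were named after their values were seen. Members, classes and lists were chosen with earlier results of these data known. The counting was tested on simulated data. Alternatives changed the probe set, the filter, the size rule or the scaling (loess, span 0.4, or the median difference subtracted). Software was matplotlib 3.10.9, statsmodels 0.14.6, scipy 1.17.1, pandas 2.3.3, numpy 2.4.6 and Python 3.11.15.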

Additional observations from a re-analysis of the deposited data

How the results depend on the processing

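With 1 array per genotype no array could be left out, and no paired analysis was possible because each genotype has 1 array. For 61 genes (the 28 measured collagens, the 3 cartilage collagens, and the genes past 1.5-fold, highest and lowest of the collagen pathway lists) 239 alternative values were computed. *Bcl11b*, the markers and the other genes given with values were not included. The move stayed under 0.145 log2 units in 230 and exceeded it in 9, and no gene past 1.5-fold changed sign. Of 211 alternative counts and medians 191 stayed within their margin (1.5 times for a count, 0.145 over the root of the number of genes for a median). Larger or smaller size rules count fewer or more genes by construction, and the cause of the other moves was not tested. Of the collagen genes, 3 were higher and 4 lower at 1.2-fold, 0 were lower at 2-fold, and 0 were lower without suffixed probe sets, where *Col14a1* was at −0.54. *Col8a1* stayed past 1.5-fold with 0.87 as the mean over all probe sets. The collagen median was −0.016 with no filter, as was that of beaded collagens. FACIT medians were −0.18 when probe sets were averaged, 0.016 when suffixed ones were dropped and −0.26 with a mean of at least 7. For hydroxylation and folding, averaging the probe sets gave a median of 0.0095, and 2 were higher at 1.2-fold. For fibril partners averaging gave −0.033, 1 was higher with a mean of at least 7 and 2 were lower at 2-fold. For receptors the median was 0.073 without suffixed probe sets and with a mean of at least 7 and −0.073 with no filter, and 2 were higher at 1.2-fold. At 1.2-fold 1 secretion gene was higher and 3 basement membrane partners were lower. The loess curve ran from −0.011 to 0.016 and the median difference was 0, so neither scaling could move a gene by 0.145. A gene with 1 probe set also keeps its value when probe sets are averaged. The 230 and the 191 therefore partly count values that could not move, and all 9 moves came from a change of probe set.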

Other observations

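Further marker lists were read beside the collagen genes. Of all genes, 1.61% were at least 1.5-fold higher, 1.75% were at least 1.5-fold lower and 48.5% lay below 0. Of 7 adipocyte genes 5 were measured, of which 2 were at least 1.5-fold lower (*Lpl* with −0.97 and *Pparg* with −0.71) and 2 were above 0 (*Adipoq* with 0.56 and *Fabp4* with 0.31). The median was −0.53, and the probe sets of *Fabp4* lay on both sides of 0. All 5 mesothelial genes were below 0, with a median of −0.42, and 1 was at least 1.5-fold lower. Tendon genes, which share the fibrillar collagens, had a median of 0.28 over 3 genes, and none was past 1.5-fold. Osteoblast genes were measured on 1 of 8 genes, *Sp7* with 0.18. Epithelial, endothelial and skeletal muscle lists had medians of −0.081 over 5, 0.19 over 3 and 0.19 over 2 genes, with none past 1.5-fold. The fibroblast list had a median of 0.12 over 7 genes.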
